A study of Rattus norvegicus with 12 samples.

Results

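The genes of the proteasome were followed in normal and tumor rat liver cells cultured with or without arginine. Members were taken by symbol, as every gene with a probe set whose single annotated symbol begins with Psma, Psmb, Psmc, Psmd, Psme, Psmf or Psmg and a digit, and the rule found 43 genes of 10411 with a probe set of 1 symbol. They are carried by 46 probe sets, and the probe set with the highest mean signal over the 12 arrays stood for its gene. By role the members are 7 alpha subunits and 6 constitutive beta subunits of the 20S core, 3 inducible beta subunits, 5 ATPases and 9 other subunits of the 19S regulator, 3 chaperones of 19S assembly, 4 chaperones of 20S assembly, and 4 activators or inhibitors. The remaining 2, Psmc3ip and Psme3ip1, match by symbol but are not subunits: Psmc3ip acts in meiotic recombination and Psme3ip1 binds an activator. Of the genes listed for these roles, Psma8, Psmb11, Psmc6, Psmd12 and Psmd14 had no probe set under their symbol, and Psmb6 and Psme3 were only on probe sets that carry several symbols.

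The proteasome is the protease that destroys most proteins a cell has marked with ubiquitin, and it returns their amino acids to the pool for new synthesis. Its 20S core is a barrel of stacked rings, in which the alpha rings gate the entrance and the beta rings hold the cutting sites, and the 19S regulator on either end binds ubiquitin chains, unfolds the substrate with a ring of ATPases and feeds it in. Interferon and other inflammatory signals make cells swap the cutting subunits for the inducible Psmb8, Psmb9 and Psmb10 (the immunoproteasome) and raise the PA28 activator made of Psme1 and Psme2, which alters the peptides available to class I antigen presentation.

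The normal cells were WB-F344, a diploid line of epithelial cells that came from a Fischer-344 rat's liver (adult, male), and the tumor cells were GP7TB, a chemically transformed derivative from clonal subpopulations of WB-F344 that forms tumors when placed in rats of the same strain. Each line was grown for 18 hours in Chee's Essential Medium with 5% fetal bovine serum, either without arginine (arginine-deficient) or with L-arginine hydrochloride at 0.168 g/l (arginine-sufficient). There were 3 arrays in each of the 4 groups, from 3 experiments that each paired a deficient with a sufficient culture of a line. The study asked which genes respond to a shortage of arginine and whether transformation changes that response. Each cell type is 1 line, so a difference between tumor and normal cells is one between these lines.

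Values are signals on a linear scale, fixed on each array to a trimmed mean of 500 (499.9 to 500.3), so that they compare 1 gene between arrays and not 1 gene with another. Probe sets entered the test if they ranked in the top 54% of signals (at or above 146 to 191, depending on the array) in 3 or more of the 12 arrays. This is the threshold named below, and it left 9745 probe sets, and all 43 members were among them. Of the members, 40 were above the threshold on all 12 arrays. The others were Psma3 and Psmb9 on 11 arrays each and Psmb8 on 6. The normal arrays were scanned on 3 days and the tumor arrays on 1 other day, on other chip lots, so cell type, scan day and chip lot cannot be told apart. Within the normal line, the arrays of experiments 1 and 3 shared a day with their partner and those of experiment 2 did not. The run records name trypsin in the harvest of the tumor cultures of experiments 1 and 3, its absence in experiment 2, and do not mention it for the normal cultures. Epithelial Krt8 was above the threshold on every array, while Krt18, Krt19, Cdh1 and Epcam were above it on none and the hepatocyte markers Alb and Ttr on 2 arrays each. Summed signals of 4 mesenchymal markers were 12086 to 16395 in arginine-deficient tumor cells and 11493 to 13602 in arginine-sufficient tumor cells, against 30608 to 40704 in arginine-deficient normal cells and 37343 to 48626 in arginine-sufficient normal cells. Col1a1 carried most of that gap, at 212 to 592 in tumor cells, against 15113 to 28460 in normal cells, while Vim overlapped between the lines and Thy1 was under the threshold on every array. The part of these features in the results was not tested.

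More proteasome genes passed the test between the cell lines than between the media, and between the lines they ran in both directions. Without arginine, 10 members were higher and 7 lower in tumor than in normal cells, 17 of 43 (39.5%) beside 40.7% of all tested probe sets (19.5% higher and 21.2% lower). With arginine, 7 were higher and 5 lower, 12 of 43 (27.9%) beside 34.6% of all (16.4% higher and 18.1% lower). The members did not pass more often than all probe sets did. Their median absolute difference was 0.39 without and 0.28 with arginine on the log2 scale, beside 0.51 and 0.45 for all. Between arginine-deficient and arginine-sufficient cells, 0 members passed in tumor cells and 0 in normal cells, beside 1.91% and 0.164% of all tested probe sets. With the paired experiments as a block, 5 of 43 (11.6%) passed in tumor cells, beside 11.0% of all, and 0 in normal cells, beside 2.41%. These are limma tests with Benjamini-Hochberg adjustment over all 9745 probe sets. Under another scaling, centring every array on its median, differences of all probe sets between the lines shifted up by 0.12 with and 0.11 without arginine. The split of the members became 12 higher and 5 lower without arginine and 8 higher and 3 lower with it. The shares of all probe sets under that scaling are not given here, so the changed split is not a result about the members.

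The signs of the differences divided by role. Without arginine, 1 of 7 alpha subunits was above 0 in tumor minus normal, against 5 of 6 constitutive beta subunits, 5 of 5 ATPases and 9 of 9 other 19S subunits. With arginine the counts were 2 of 7, 6 of 6, 5 of 5 and 7 of 9. All tested probe sets divided evenly, with 50.4% and 50.0% above 0. Quantile normalization changed these counts by at most 1 and median centring by at most 2. They are counts of signs and not of tests, and the arrays behind the comparisons are the same for every gene.

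**Figure D1:**
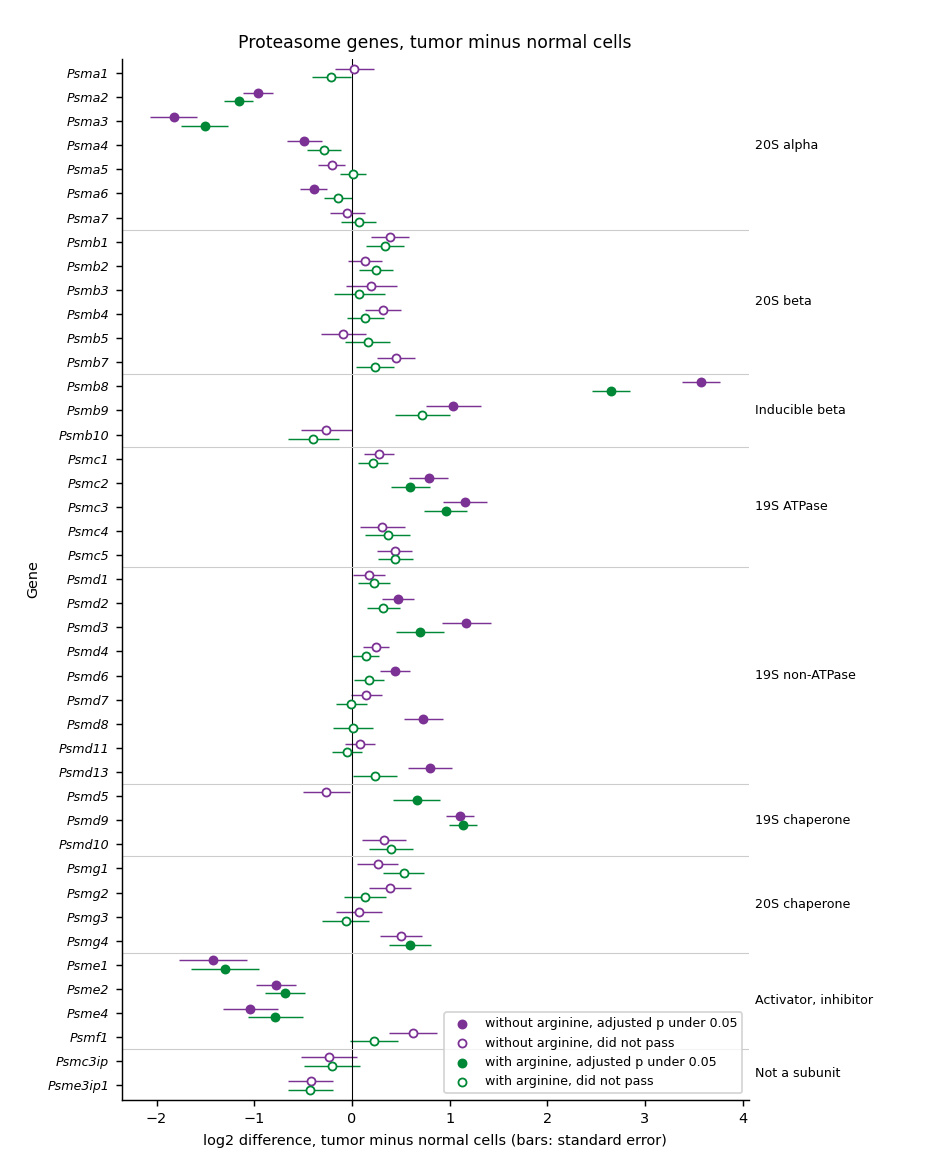
Log2 difference between tumor and normal cells (horizontal axis) for the 43 proteasome genes, ordered by role, without and with arginine. Points are means of 3 against 3 arrays with the standard error as a bar, and filled points passed an adjusted p of 0.05. Psmb8, whose normal signals were all under the threshold, lies farthest right at 3.58 and 2.65, Psma3 and Psme1 lie farthest left, and the 19S genes lie mostly right of 0.

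Among the alpha subunits, which form the outer rings and the gate of the core, 2 were lower in tumor cells in both media. Psma2 (probe set 1398856_at) had signals of 1942, 1652 and 1930.3 in arginine-deficient tumor cells and 2084, 1929.7 and 2041 in arginine-sufficient tumor cells, against 3485, 4247 and 3089 in arginine-deficient normal cells and 4436, 4489 and 4595 in arginine-sufficient normal cells, listed in the order of experiments 1 to 3 here and below. All 6 tumor arrays were below all 6 normal arrays. It was 1.95-fold lower without arginine (log2 difference -0.96, SE 0.15, limma adjusted p = 2.41e-04) and 2.23-fold lower with it (-1.16, SE 0.15, adjusted p = 6.15e-05).

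Psma3 gave different answers from its probe sets. The one with its symbol alone (1368508_at) had signals of 218, 194 and 225 in arginine-deficient tumor cells and 152, 295 and 188 in arginine-sufficient tumor cells, against 668, 647 and 974 in arginine-deficient normal cells and 526, 630.4 and 586 in arginine-sufficient normal cells. Again the lines did not overlap, and the log2 difference was -1.82 without (SE 0.24, limma adjusted p = 6.42e-05) and -1.51 with arginine (SE 0.24, adjusted p = 3.50e-04). Another probe set, which also carries the symbol of a near copy, Psma3l, had signals of 4319, 2986 and 3211 in arginine-deficient tumor cells and 5513, 4451 and 3978 in arginine-sufficient tumor cells, against 3355, 3442 and 3651 in arginine-deficient normal cells and 3605, 4524 and 4433 in arginine-sufficient normal cells. Its groups overlapped and its differences were -0.01 and 0.14 (limma adjusted p = 0.973 and 0.568), so a lower level of Psma3 rests on 1 of its 2 probe sets.

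Psma4 and Psma6 passed in the medium without arginine, lower in tumor cells with differences of -0.49 and -0.39 (limma adjusted p = 0.04 and 0.0382). With arginine they were -0.28 and -0.14 (adjusted p = 0.234 and 0.462), and neither passed the test of the difference between the arginine responses, given below. Both calls went under median centring or without 1 of several arrays, up to an adjusted p of 0.207. That of Psma6 also went with no filter. Psma1, Psma5 and Psma7 stayed between -0.21 and 0.07 and did not pass.

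The constitutive beta subunits, among them Psmb5 and Psmb7 with 2 of the core's cutting sites, were close in both lines. Their differences ran from -0.09 (Psmb5) to 0.45 (Psmb7) without arginine and from 0.08 (Psmb3) to 0.33 (Psmb1) with it, and none passed, with 1 of 6 at an unadjusted p under 0.05 without arginine and 0 of 6 with it. Psmb7 had signals of 4698, 6060.3 and 7450.2 in arginine-deficient tumor cells, against 3895, 5034 and 4227 in arginine-deficient normal cells (limma adjusted p = 0.0798). The probe set shared by Psmb6, which carries the remaining cutting site, and Psmb6l1 had 2307, 3121 and 4455 in arginine-deficient tumor cells and 1891, 2117 and 3129 in arginine-sufficient tumor cells, against 2941, 2365 and 1540.2 in arginine-deficient normal cells and 2220.1, 2927 and 1766 in arginine-sufficient normal cells. Its groups overlapped too, and its differences of 0.53 and 0.04 did not pass (adjusted p = 0.172 and 0.927).

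Psmb8, the inducible subunit that replaces Psmb5, was above the expressed threshold in the tumor line and not in the normal line. Its signals (1367786_at) were 1342, 1286 and 1636 in arginine-deficient tumor cells and 995, 837 and 978 in arginine-sufficient tumor cells, against 93.6, 143 and 124 in arginine-deficient normal cells and 163, 150.2 and 134 in arginine-sufficient normal cells. Every tumor array was above the expressed threshold and every normal array was below its own threshold. The gene thus entered the test only through the tumor arrays, where it is high, and its level in normal cells is known only as a bound. With each signal under its array's threshold raised to that threshold, Psmb8 was at least 8.36-fold higher in tumor cells without arginine (limma adjusted p = 1.39e-08) and at least 5.15-fold with it (adjusted p = 1.97e-07). The signals as measured gave log2 differences of 3.58 and 2.65.

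Psmb9, which replaces Psmb6 and is encoded beside Psmb8 in the major histocompatibility complex, had signals (1370186_at) of 254, 404 and 466 in arginine-deficient tumor cells and 396, 496 and 493 in arginine-sufficient tumor cells, against 126, 237 and 186 in arginine-deficient normal cells and 224, 285 and 339 in arginine-sufficient normal cells. Tumor and normal arrays overlapped. It was 2.05-fold higher in tumor cells without arginine (log2 difference 1.04, SE 0.28, limma adjusted p = 0.00935) and did not pass with it (0.72, SE 0.28, adjusted p = 0.0607). Psmb10, which replaces Psmb7, had 389, 517 and 577 in arginine-deficient tumor cells and 306, 381 and 544 in arginine-sufficient tumor cells, against 663, 747 and 404 in arginine-deficient normal cells and 494, 561 and 519.5 in arginine-sufficient normal cells (1374033_at). It ran the other way and did not pass, at -0.26 and -0.39 (SE 0.26, adjusted p = 0.45 and 0.268). Psmb10 was thus not higher with the other inducible subunits.

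**Figure D2:**
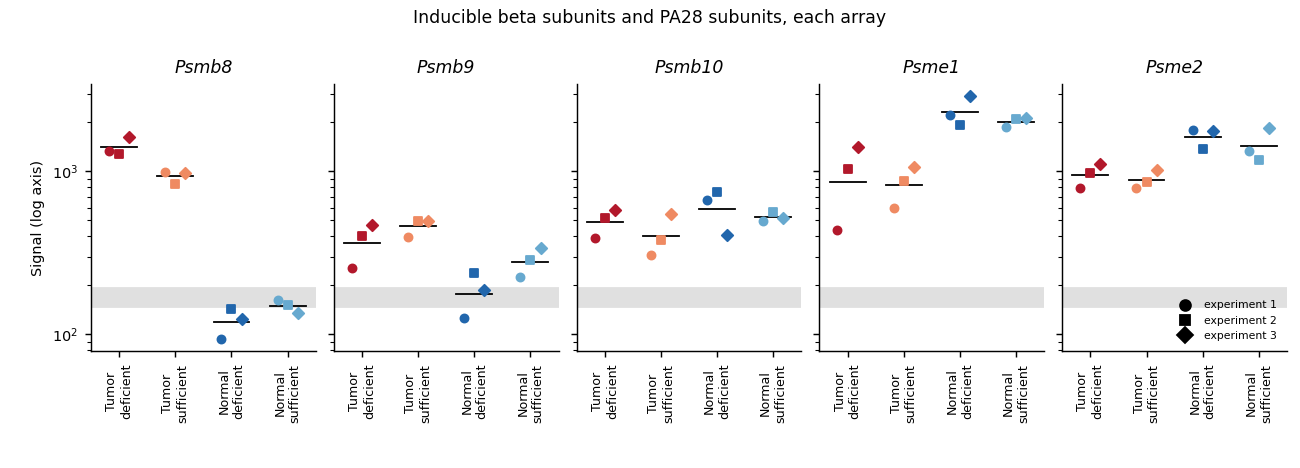
Signal on each of the 12 arrays (log axis) for the inducible beta subunits Psmb8, Psmb9 and Psmb10 and for Psme1 and Psme2, by group and experiment, with the geometric mean of 3 arrays as a line and the range of the expressed thresholds as a grey band. Psmb8 in normal cells lies in or below the band, and Psme1 and Psme2 are lower on all 6 tumor arrays than on all 6 normal arrays.

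The partner of the immunoproteasome went in the opposite direction. Psme1, the alpha subunit of PA28 (1367663_at), had signals of 436, 1034 and 1418 in arginine-deficient tumor cells and 597, 869 and 1063 in arginine-sufficient tumor cells, against 2225, 1926 and 2892 in arginine-deficient normal cells and 1866, 2087 and 2118 in arginine-sufficient normal cells. It was 2.69-fold lower in tumor cells without arginine (log2 difference -1.43, SE 0.35, limma adjusted p = 0.00522) and 2.46-fold lower with it (-1.30, SE 0.35, adjusted p = 0.0105). Without the deficient tumor array of experiment 1, the difference in the arginine-free medium was -0.94 (adjusted p = 0.01). The tumor arrays did not reach the normal ones but spread widely, and its SD within groups, 0.513 on the log2 scale, was the highest of all members. Psme2, the beta subunit (1367710_at), had 788, 980.5 and 1113 in arginine-deficient tumor cells and 787, 866 and 1024 in arginine-sufficient tumor cells, against 1796, 1367 and 1762 in arginine-deficient normal cells and 1330.1, 1179.8 and 1851 in arginine-sufficient normal cells. It too was lower on all 6 tumor arrays, with differences of -0.78 (SE 0.21, adjusted p = 0.00898) and -0.69 (SE 0.21, adjusted p = 0.0205). With arginine, the Psme2 call was lost without the tumor arrays of experiments 1 or 2 (adjusted p = 0.0702 and 0.061) or the normal array of experiment 3 (0.0997). Median centring lost that call too (adjusted p = 0.0714).

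The genes that interferon induces together with these subunits did not move as 1 group. Of 15 listed for antigen processing and interferon response, 9 were tested. Without arginine, Tap1 and Tap2, the peptide transporter encoded near Psmb8 and Psmb9, were higher in tumor cells, at 1.26 and 2.36 (limma adjusted p = 0.00509 and 0.0104), and Irf1, an interferon-regulated activator of these genes, was lower (-0.70, adjusted p = 0.0189). With arginine, Tapbp, which helps to load peptides on class I molecules, was higher (0.70, adjusted p = 0.0373) and Irf1 and Irf9, a factor of interferon signalling, were lower (-0.70 and -1.04, adjusted p = 0.0216 and 0.0406). Tap1 signals were 362, 314 and 329 in arginine-deficient tumor cells, against 158, 87.0 and 199.7 in arginine-deficient normal cells. Of these, 158 and 87.0 were under the threshold of their arrays. Every normal Tap2 signal (21.3 to 156) was under the threshold of its array. Tap2 thus entered the test only through the tumor arrays, and its level in normal cells is known only as a bound. With arginine, every tumor Irf9 signal (71.4 to 128) was under the threshold of its array, which likewise leaves a bound. Both counts, 3 of 9 in each medium (33.3%), are near the 40.7% and 34.6% of all tested probe sets. Ifit3, Mx1 and Irf8 were under the expressed threshold. Leukocytes carry the immunoproteasome without induction, and of their markers Ptprc, Cd74 and Cd68 were above the threshold on no array and Lyz2 on 2. The summed signal of the 4 markers was 243 to 349.8 in arginine-deficient and 99.3 to 313 in arginine-sufficient tumor cells, against 242 to 292 in arginine-deficient and 204 to 281 in arginine-sufficient normal cells.

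The DNA before the start of Psmb8 and Psme2 is shown because these inducible genes differed between the lines in opposite directions. The sequences are RefSeq promoter windows of rat (GRCr8), from 250 bases before to 20 bases after the start, and 41 of the 43 members had such a window. Capitals mark the core of the interferon-stimulated response element, a pair of GAAA runs with any 2 bases between them, and the gamma-activated site, TTCNNNGAA, each searched on both strands, a search chosen after the values were seen. Psmb8 lies on chromosome 20 (chr20:4657012-4657281, minus strand) and Psme2 on chromosome 15 (chr15:33052732-33053001, minus strand).
Psmb8: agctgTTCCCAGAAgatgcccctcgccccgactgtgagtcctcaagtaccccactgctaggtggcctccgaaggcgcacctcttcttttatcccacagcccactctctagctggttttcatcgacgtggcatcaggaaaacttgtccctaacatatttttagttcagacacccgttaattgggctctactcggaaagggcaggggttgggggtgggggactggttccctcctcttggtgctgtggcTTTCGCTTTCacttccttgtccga
Psme2: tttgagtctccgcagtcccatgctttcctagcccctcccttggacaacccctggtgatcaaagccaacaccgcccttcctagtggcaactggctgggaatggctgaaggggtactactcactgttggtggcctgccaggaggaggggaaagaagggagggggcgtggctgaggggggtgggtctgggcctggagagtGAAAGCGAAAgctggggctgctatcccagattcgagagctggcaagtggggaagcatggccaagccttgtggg
The Psmb8 window holds a gamma-activated site at its far end and a response element core on the opposite strand at the start, and the Psme2 window holds 1 response element core. In the full windows of 300 bases, the response element core was present in 7 of 41 members (Psma4, Psmb3, Psmb8, Psmb10, Psmd7, Psme2 and Psmg4), beside 3.77% of all 27457 windows, and the gamma-activated site in 3 of 41 (Psmb8, Psmd3 and Psmd7), beside 8.68%. The windows of Psmb9 and Psme1 held neither. No matches overlapped each other, and a match of letters is not a bound site.

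The other activators and the inhibitor did not follow 1 direction either. Psme4, the PA200 activator of nuclear proteasomes (1368817_at), had signals of 810.0, 363 and 405 in arginine-deficient tumor cells and 1017, 775 and 541 in arginine-sufficient tumor cells, against 1066, 988 and 985 in arginine-deficient normal cells and 1303, 1209 and 1386 in arginine-sufficient normal cells. Its difference was -1.04 without (SE 0.28, limma adjusted p = 0.00949) and -0.79 with arginine (SE 0.28, adjusted p = 0.0439). The call without arginine was lost without the deficient tumor array of experiment 2 (adjusted p = 0.0522). The call with arginine was lost without any 1 of 8 arrays, up to an adjusted p of 0.187 without the tumor array of experiment 3, and also with no filter, median centring or unmoderated variances (0.0632, 0.0617 and 0.101). Of its other probe sets, one was under the threshold on all tumor arrays and above it on all normal arrays (14.2 to 106 against 195 to 274), which gives no measured level in tumor cells, and another did not pass (-0.60 and -0.40, adjusted p = 0.18 and 0.398). Psmf1, an inhibitor of the core in the test tube, was 0.62 and 0.22 (adjusted p = 0.056 and 0.518). Of 4 probe sets that carry Psme3 together with other symbols, 1 was higher in tumor cells without arginine by 0.60 and another by 0.82 (adjusted p = 0.0186 and 0.0423), and with arginine neither passed (0.21 and 0.74, adjusted p = 0.416 and 0.0714).

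The 19S ATPases, which unfold the substrate, were all above 0 in tumor minus normal, and 2 of 5 passed in each medium, both higher. Of all tested probe sets, 19.5% without and 16.4% with arginine were higher, and 40.7% and 34.6% passed either way. Psmc3 (1387120_at) had signals of 3388, 4646 and 5195 in arginine-deficient tumor cells and 3069, 3293 and 5309.8 in arginine-sufficient tumor cells, against 2184, 2062 and 1628 in arginine-deficient normal cells and 2113, 1856 and 1865 in arginine-sufficient normal cells. No tumor array fell into the normal range. The log2 difference was 1.16 without (SE 0.22, limma adjusted p = 0.00109) and 0.96 with arginine (SE 0.22, adjusted p = 0.0046). Psmc2 ran from 5042 to 8431 in tumor cells, against 2907 to 4774 in normal cells, again without overlap (0.78, adjusted p = 0.00636, and 0.60, adjusted p = 0.0311). With arginine its call was lost without the tumor array of experiment 3 or the normal array of experiment 1 or 3. That call was also lost with no filter or unmoderated variances, up to an adjusted p of 0.143 over all of these. Psmc1, Psmc4 and Psmc5 were between 0.21 and 0.44 and did not pass.

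Of the other 19S subunits, 5 of 9 (55.6%) passed without arginine and 1 of 9 (11.1%) with it, all higher in tumor cells, beside 40.7% and 34.6% of all tested probe sets (19.5% and 16.4% higher). Psmd3, a lid subunit (1388466_at), had signals of 1014, 1490.4 and 1693 in arginine-deficient tumor cells and 1136, 1431 and 1779 in arginine-sufficient tumor cells, against 466, 794 and 604 in arginine-deficient normal cells and 936, 969 and 745 in arginine-sufficient normal cells. All tumor arrays were above all normal arrays. Its difference was 1.17 without (SE 0.25, limma adjusted p = 0.00214) and 0.70 with arginine (SE 0.25, adjusted p = 0.0422), and the call with arginine was lost without any 1 of 7 arrays, up to an adjusted p of 0.163. No filter and unmoderated variances lost it too (adjusted p = 0.0584 and 0.0874). The lid subunits Psmd13 and Psmd8, the base scaffold Psmd2 and the lid subunit Psmd6 differed by 0.80, 0.73, 0.47 and 0.44 without arginine (adjusted p = 0.0113, 0.0111, 0.0352 and 0.0332) and by 0.24, 0.01, 0.32 and 0.18 with it, where none passed. Each of these 4 calls was lost without 1 or more single arrays, among them the deficient tumor array of experiment 2 for Psmd8 (0.0507) and of experiment 3 for Psmd13 (0.0595). That of Psmd6 was also lost with quantile normalization. Psmd1, a scaffold of the base, and Psmd7 and Psmd11, of the lid, were between -0.05 and 0.22 and did not pass, nor did a second probe set of Psmd11 (-0.46 and -0.38, adjusted p = 0.0804 and 0.151). Psmd4, a receptor for ubiquitin chains, was the steadiest member, with an SD within groups of 0.0716 on the log2 scale, and did not pass between the lines (0.25 and 0.14, adjusted p = 0.171 and 0.463).

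Psmd9, a chaperone that helps to build the ATPase ring and is not part of the finished particle, was the member with the next lowest SD within groups (0.0832) and a difference of about 1 on the log2 scale. Its signals (1368184_at) were 1566, 1732 and 1689 in arginine-deficient tumor cells and 1576, 1597 and 1574 in arginine-sufficient tumor cells, against 814, 804 and 699 in arginine-deficient normal cells and 752, 731 and 673 in arginine-sufficient normal cells. The lines were far apart in both media, with differences of 1.11 without (SE 0.14, limma adjusted p = 4.89e-05) and 1.14 with arginine (SE 0.14, adjusted p = 4.40e-05). Psmd5, another chaperone of the same step (1372267_at), had 1436, 1984 and 2123 in arginine-deficient tumor cells and 2590.3, 2916 and 3378 in arginine-sufficient tumor cells, against 2279.5, 2468 and 1860.1 in arginine-deficient normal cells and 1868, 2633 and 1307 in arginine-sufficient normal cells. It was higher in tumor cells with arginine (0.66, SE 0.24, adjusted p = 0.0466, and -0.26, adjusted p = 0.409, without it), and that call was lost without any 1 of 9 arrays. The call was also lost with no filter, quantile normalization or unmoderated variances, up to an adjusted p of 0.212 over all of these. Psmd10, likewise a chaperone that is also known as the liver oncoprotein gankyrin, did not pass (0.33 and 0.40, adjusted p = 0.259 and 0.188).

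Of the 20S assembly chaperones, which build the alpha ring, Psmg4 was higher in tumor cells with arginine (0.59, SE 0.21, limma adjusted p = 0.0467) and at 0.51 without it (adjusted p = 0.0757). That call was lost without any 1 of 9 arrays, with no filter or with unmoderated variances, up to an adjusted p of 0.153. Psmg1, Psmg2 and Psmg3 did not pass, between -0.07 and 0.53. Psmc3ip and Psme3ip1, the members that are not subunits, did not pass either (-0.24 and -0.42 without, -0.20 and -0.42 with arginine).

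In all, tumor and normal arrays did not overlap at 6 against 6 for 9 of 43 members, beside 29.0% of all tested probe sets. Psmb8, Psmc2, Psmc3, Psmd3 and Psmd9 were above (5 of 43, beside 13.7%), and Psma2, Psma3, Psme1 and Psme2 below (4 of 43, beside 15.2%). Of the 17 calls without arginine, 10 passed under every alternative and with each array left out (Psma2, Psma3, Psmb8, Psmb9, Psmc2, Psmc3, Psmd3, Psmd9, Psme1 and Psme2). Of the 12 with arginine, 6 did (Psma2, Psma3, Psmb8, Psmc3, Psmd9 and Psme1). Psmb8 counts here with normal signals under the threshold. Psma3 counts by the probe set with its symbol alone, and the one shared with Psma3l did not pass in either medium.

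Among listed genes that work with the proteasome, most of those that passed were higher in tumor cells. Of 11 proteasome gene symbols listed outside the symbol rule, 6 were tested, and with arginine 4 were higher: Adrm1, a ubiquitin receptor (0.89, limma adjusted p = 0.00208), Sem1, a small 19S subunit (0.77, 0.00227), Ecpas, which holds the core and regulator together (0.83, 0.0184), and Akirin2, which carries proteasomes into the nucleus (1.20, 5.73e-04). Without arginine 3 were, all but Ecpas. These are 66.7% and 50.0% of the genes tested, beside 34.6% and 40.7% of all probe sets that passed either way (16.4% and 19.5% higher). Of 17 genes for ubiquitin, its activation and the shuttles that deliver substrates, 11 were tested, and 7 were higher and 1 lower with arginine and 6 higher and 2 lower without it, 8 of 11 (72.7%) in each medium. Rad23b, a shuttle, and Vcp, the segregase that extracts ubiquitylated proteins, were higher with arginine by 1.32 and 0.99 (adjusted p = 1.67e-04 and 0.0012). Uba6, the alternative activating enzyme, was lower with arginine, at -1.34 as measured (limma adjusted p = 0.0148). Its tumor signals, 83.1 to 166, were each under the threshold of their array, and its normal signals, 196 to 526.5, were each above it. Uba6 thus entered the test only through the normal arrays, and its level in tumor cells is known only as a bound. Of 8 regulators, 5 were tested, of which Mafk alone passed, without arginine (0.86, adjusted p = 0.00378). Nfe2l1, the factor that raises proteasome genes when the protease is blocked, differed by -0.01 and -0.07 (adjusted p = 0.96 and 0.825).

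Of the proteasome genes, 1 passed the test of arginine shortage, and only in the mean over both lines. With the paired experiments as a block, 5 passed in tumor cells and 7 in the mean. In tumor cells 26 of 43 members were above 0 in deficient minus sufficient, with a median of 0.07 on the log2 scale, beside 44.4% of all tested probe sets above 0 and a median of -0.05. In normal cells 23 of 43 were above 0, with a median of 0.00, beside 44.6% of all and a median of -0.04. Median centring shifted the responses of all probe sets up by 0.08 in tumor and 0.09 in normal cells, so these counts depend on the scaling. The limma test called 0 members in tumor cells and 0 in normal cells. There 8 and 5 of 43 had an unadjusted p under 0.05, beside 1491 and 920 of all 9745 probe sets. The fit without moderated variances also called 0 members in each. With a standard error of 0.14 to 0.35 for each member's difference, small changes were not detectable. The mean of both responses, which has a smaller error, called 1 member, Psmg4, beside 1.6% of all tested probe sets that rose and 2.96% that passed either way. In that mean 11 of 43 members had an unadjusted p under 0.05, beside 1846 of all 9745 probe sets. The ratio of 3' to 5' signal of Gapdh, a measure of RNA quality, was higher on the arginine-deficient array in 6 of 6 pairs (0.998 to 1.38 over all arrays). The same ratio of Actb went up in some pairs and down in others. In experiments 1, 2 and 3 it was 1.281, 1.211 and 1.629 in arginine-deficient tumor cells, against 1.283, 1.247 and 1.007 in arginine-sufficient tumor cells. In normal cells it was 1.414, 1.106 and 0.9995 without arginine, against 1.098, 1.157 and 1.143 with it. The part of RNA quality in these results was not tested.

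**Figure D3:**
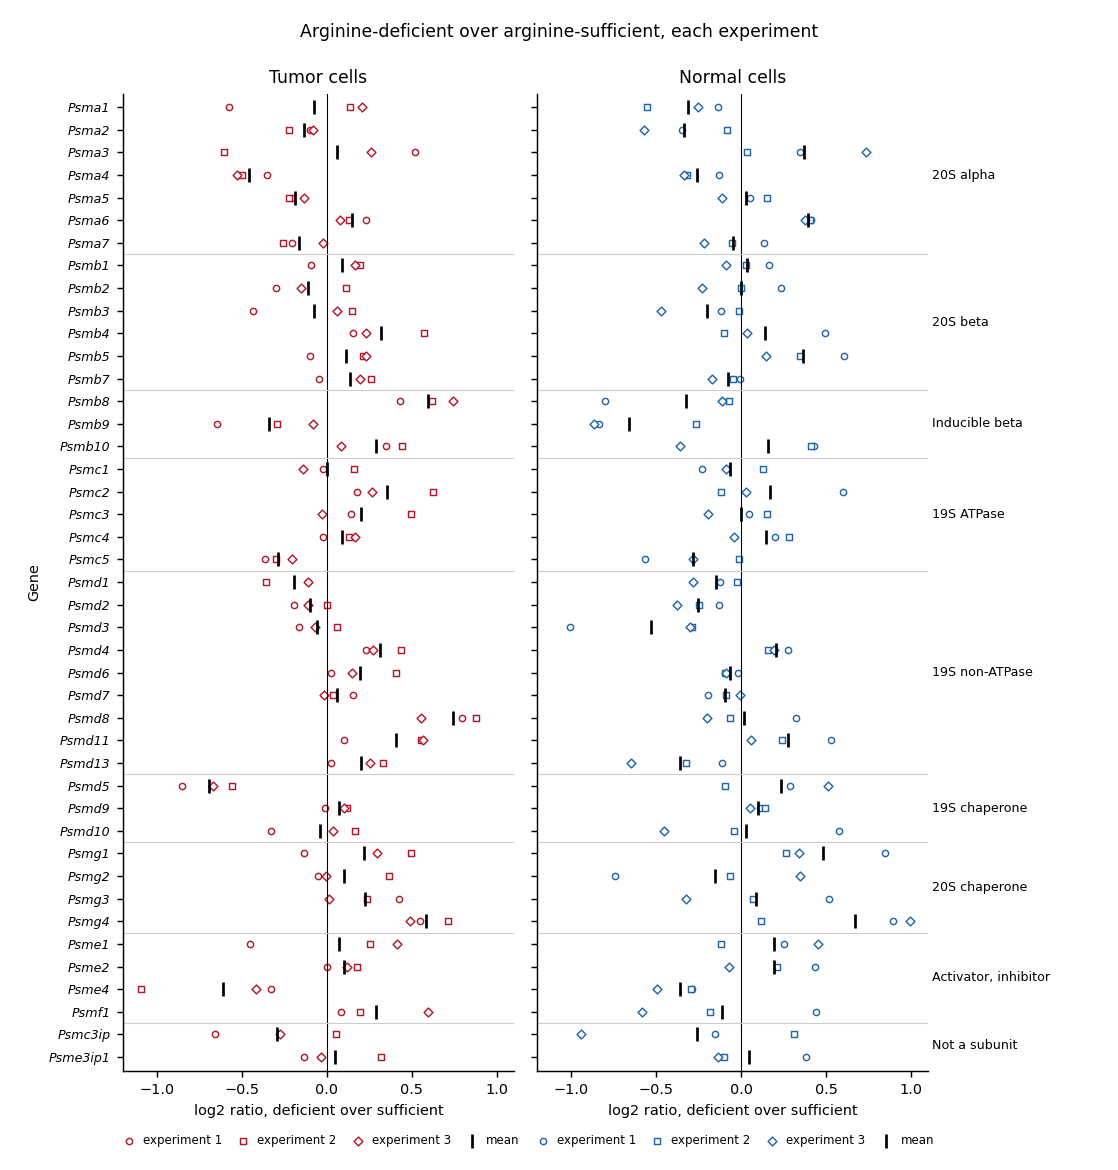
Log2 ratio between paired arrays, arginine-deficient over arginine-sufficient, for each of the 43 proteasome genes, with tumor cells on the left, normal cells on the right, 3 experiments per gene as symbols and their mean as a black tick. Most genes scatter on both sides of 0, Psmg4 is right of 0 in 6 of 6 pairs, and Psme4 is left of 0 in 6 of 6.

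Psmg4, which pairs with Psmg3 in the assembly of the alpha ring, was higher on the deficient array of every pair. Its signals (1372686_at) were 1511, 1615 and 1656 in arginine-deficient tumor cells, against 1032, 986 and 1181 in arginine-sufficient tumor cells. In normal cells they were 1487, 776 and 1222 without arginine, against 801, 714 and 613 with it. The deficient arrays did not overlap the sufficient ones in tumor cells, while in normal cells 1 deficient array lay among them. The mean response was 0.63 (SE 0.15, limma adjusted p = 0.0421). It was 0.58 in tumor cells and 0.67 in normal cells (adjusted p = 0.197 and 0.325). The call is at the edge of the threshold: leaving out 1 array kept it only for the normal deficient array of experiment 2 (adjusted p = 0.00518), and without any other array it was lost, up to 0.118.

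In normal cells, the next largest positive difference was that of Psmg1, which pairs with Psmg2 as the first chaperone of the alpha ring (1371385_at). Its signals were 1818, 1780.1 and 1604 without arginine, against 1009.8, 1482 and 1269 with it, and the arrays of the media did not overlap (0.48, SE 0.21, limma adjusted p = 0.48). In tumor cells the signals of 1536, 2306 and 2538 without and 1686, 1635 and 2066 with arginine overlapped (0.22, adjusted p = 0.673). The largest negative differences in normal cells were those of Psmb9 and Psmd3, with log2 ratios of -0.84, -0.27 and -0.87 for Psmb9 and -1.01, -0.29 and -0.30 for Psmd3 in experiments 1, 2 and 3. Their means were -0.66 and -0.53 (adjusted p = 0.474 and 0.531), and neither passed.

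In tumor cells, Psmd8, a lid subunit (1389519_at), had the largest positive difference, with signals of 3182, 4432 and 4449.9 without arginine, against 1836, 2413 and 3031 with it. All deficient arrays were above all sufficient ones. The difference was 0.74 (SE 0.20, limma adjusted p = 0.0834), while normal cells, with signals of 2872, 2229 and 2141 without and 2293, 2334 and 2462 with arginine, stood at 0.02 (adjusted p = 0.987). The difference between these responses did not pass (0.72, SE 0.29, adjusted p = 0.824). Psmb8, listed above, was next, at 0.60 in tumor cells (adjusted p = 0.144), where its deficient arrays were all above its sufficient ones.

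Psmd5, a chaperone of the ATPase ring, had the largest negative difference in tumor cells, with log2 ratios of -0.85, -0.56 and -0.67 in experiments 1, 2 and 3 and a mean of -0.69 (SE 0.24, limma adjusted p = 0.171). Its signals had been lower on every deficient tumor array than on every sufficient one. In normal cells it was at 0.23 (adjusted p = 0.823), and the difference of the responses was -0.93 (SE 0.34, adjusted p = 0.824). Psme4 followed at -0.61 in tumor cells (SE 0.28, adjusted p = 0.315) and -0.36 in normal cells (adjusted p = 0.741), with a mean response of -0.49 (adjusted p = 0.204). A further probe set of Psme4 stood at -0.48 in the mean response (adjusted p = 0.302).

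The experiments paired cultures, and with the experiment as a block more members passed in tumor cells, 2 higher and 3 lower, beside 4.79% and 6.18% of all tested probe sets and 11.0% in all. Psmd8 and Psmg4 rose (0.74 and 0.58, limma adjusted p = 0.00502 and 0.045 with the block), and Psmd5, Psma4 and Psme4 fell (-0.69, -0.46 and -0.61, adjusted p = 0.0084, 0.0276 and 0.0319 with the block). In normal cells 0 members passed, beside 2.41% of all. In the mean response 4 rose and 3 fell, 7 of 43 (16.3%) beside 14.7% of all (6.1% and 8.58%). The risers were Psma6, Psmd8, Psmd11 and Psmg4, and those that fell were Psma4, Psmb9 and Psme4. This fit has 4 residual degrees of freedom. The difference between the responses of the lines called 0 members with or without the block, beside 0.0% of all tested probe sets without it and 0.0513% with it. At an unadjusted limma p under 0.05 without the block there were 3 of 43 members, beside 550 of 9745 probe sets.

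Counted by pairs, 4 members were higher on the deficient array in 6 of 6 pairs (Psma6, Psmd4, Psmd11 and Psmg4), beside 6.96% of all tested probe sets, and 6 were lower in 6 of 6 (Psma2, Psma4, Psmb9, Psmc5, Psmd1 and Psme4), beside 10.1%. The roles were mixed on both sides. Alpha subunits were in each, as were 19S subunits. Psmd4, the steadiest member, had log2 ratios of 0.23, 0.44 and 0.27 in tumor cells and 0.28, 0.16 and 0.19 in normal cells, a mean of 0.26 (SE 0.10, limma adjusted p = 0.166), which passed when variances were not moderated (adjusted p = 0.0316). Psmb9 had -0.65, -0.29 and -0.08 in tumor cells and -0.84, -0.27 and -0.87 in normal cells (mean -0.50, SE 0.20, adjusted p = 0.191).

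Of the 5 regulators tested, 4 were above 0 in the mean arginine response, with a median of 0.29, beside 42.7% of all probe sets and a median of -0.05, and 0 passed. In tumor cells 1 of 5 passed, beside 1.91% of all. This was Mafk, a small partner of the Nfe2l factors, with signals of 1199.7, 1212 and 1122 in arginine-deficient tumor cells, against 508, 694 and 814 in arginine-sufficient tumor cells (0.84, SE 0.20, limma adjusted p = 0.0496). In normal cells Mafk was at -0.16, and the difference between the lines did not pass (0.99, adjusted p = 0.824). Nfe2l2, which responds to oxidative stress, was at 0.37 in tumor cells and 0.48 in normal cells, and its mean of 0.42 did not pass (adjusted p = 0.146) but did when paired experiments were blocked (adjusted p = 0.029). Of the 11 genes for ubiquitin and its shuttles, 1 (9.09%) passed in the mean response, beside 2.96% of all. This was Faf1, a Vcp adaptor (0.48, adjusted p = 0.0268). Nfe2l1 stood at 0.30 in tumor cells and 0.24 in normal cells (adjusted p = 0.524 and 0.752).

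The members of 1 tumor array tended to deviate together. Each array's members were set against the mean of their group on the log2 scale. The median deviation was -0.27, 0.06 and 0.19 on the arginine-deficient and -0.12, -0.04 and 0.15 on the arginine-sufficient tumor arrays of experiments 1, 2 and 3. On the tumor arrays of experiment 1, 8 of 43 members were above their group mean without arginine and 12 with it, and on those of experiment 3, 36 and 34 were. On normal arrays the medians stayed between -0.08 and 0.09, and over all tested probe sets the medians of the 12 arrays were between -0.03 and 0.03. The 20S core and the 19S regulator shared the order, with -0.32 and -0.25 on the lowest array and 0.24 and 0.16 on the highest. The members had higher signals than most, 41 of 43 above the median of all tested probe sets (488). The tumor arrays had median signals of 194.2, 193.5 and 173.4 without arginine and 213.6, 194.9 and 185.3 with it. Whether other probe sets of like signal deviated in the same way was not tested. The pattern lies within a medium. The tumor pairs of experiments 1 and 3 each shared a sign, while that of experiment 2 did not (0.06 deficient and -0.04 sufficient). A block can take up only the part that both arrays of a pair share. The part of the harvest in this pattern, which the run records give as different for experiment 2, was not tested.

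**Figure D4:**
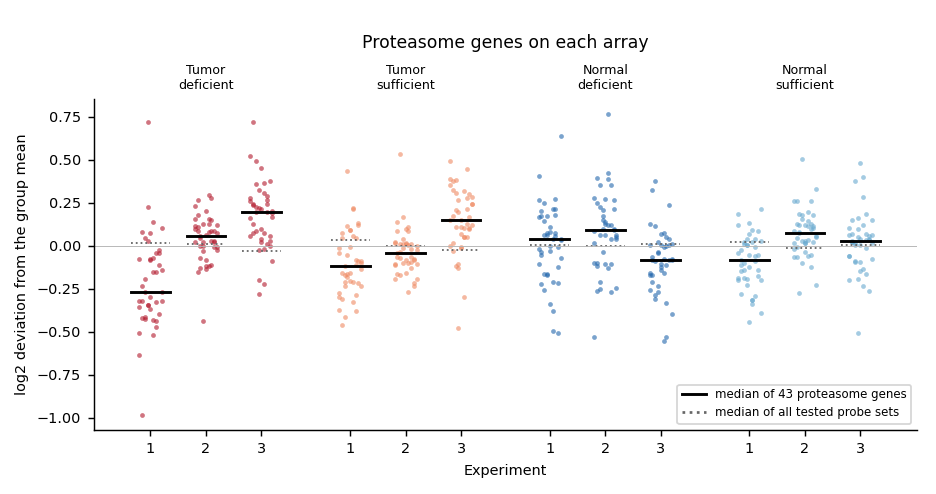
Deviation of each proteasome gene's log2 signal from the mean of its group, on each of the 12 arrays, with the median of the 43 genes as a black line and the median of all tested probe sets as a dotted line. The black line is lowest on the tumor arrays of experiment 1 (-0.27 and -0.12) and highest on those of experiment 3 (0.19 and 0.15), while the dotted line stays near 0. The probe sets of the dotted line were not matched to the members in signal.

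The Psmd9 window is shown because this chaperone parted the lines with little spread and holds matches to the antioxidant response element core, TGACNNNGC, the kind of element the Nfe2l factors bind. It lies on chromosome 12 (chr12:39018245-39018514, minus strand, GRCr8), cut as above, with the matches of either strand in capitals.
Psmd9: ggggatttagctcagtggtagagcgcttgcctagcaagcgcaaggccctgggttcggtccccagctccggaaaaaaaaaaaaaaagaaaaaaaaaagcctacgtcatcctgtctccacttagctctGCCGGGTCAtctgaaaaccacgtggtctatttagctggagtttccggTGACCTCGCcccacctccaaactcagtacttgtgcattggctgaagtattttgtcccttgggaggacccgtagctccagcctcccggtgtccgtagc
One match reads on the opposite strand and the other on the strand of the gene. In the windows of 300 bases the core was found in 7 of 41 members (17.1%), beside 12.2% of all 27457 windows. The 7 are Psma3, Psmb2, Psmb5, Psmd1, Psmd3, Psmd9 and Psme4. Of these, Psmd3 and Psmd9 were called higher and Psma3 and Psme4 lower in tumor cells in both media. The limits given above for the calls of Psma3, Psmd3 and Psme4 hold here too.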

How the data were processed

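RNA of 12 cultures was measured on 1-colour Affymetrix RAE230A rat arrays. The deposited intensity values are linear Microarray Suite 5.0 signals that the authors scaled on each array to a common trimmed mean. The scanner's run records were deposited too and gave the chip lot, the scan day and what was noted of the harvest. Arrays have no read depth, and their number limits the precision. Of 15923 probe sets, 57 controls were left out. Signals under 1 (9 to 24 per array) were raised to 1 and log2 transformed, and probe sets among the highest 54% of an array on at least 3 of 12 arrays were tested. Probe sets were named from the platform annotation, and those with several symbols were not members.

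A mean for each of the 4 groups was fitted with limma 3.58.1 (R 4.3.3; lmFit, eBayes with a trend, 8 residual degrees of freedom) to all 9745 probe sets, with Benjamini-Hochberg adjustment at 0.05 over all of them. Arginine responses are deficient minus sufficient, and cell comparisons are tumor minus normal. The scripts were tested on simulated data. Tables and figures used Python 3.11.15, numpy 2.4.6, pandas 2.3.3 and matplotlib 3.10.9. Alternatives were no filter, a filter at the highest 40%, signals raised to the threshold, quantile normalization, median centring, an unmoderated linear model, the mean of a gene's probe sets, 1 cell type alone, blocks for experiment, scan day or chip lot, and each array left out.

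By the study's methods, replicates were independent cultures, in 3 pair-wise experiments per line, from which the pairing was taken. Deviations of paired arrays from their group means correlated at 0.56, 0.0368 and 0.419 in tumor cells and at 0.429, 0.42 and 0.383 in normal cells. The block leaves 4 residual degrees of freedom. Members and gene lists were chosen with earlier results of these data known. Values of each array are given for up to 8 members with the largest differences among those past the threshold in each comparison, for the 2 largest differences either way in the arginine responses and between lines with arginine, for the inducible beta subunits and for Psme1 and Psme2.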

Additional observations from a re-analysis of the deposited data

Results flagged for a closer look

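In 3 members every tumor experiment responded to arginine shortage in one direction and every normal experiment in the other, and in each the response was above 0 in tumor cells and below 0 in normal cells. The tumor minus normal difference of the responses was 0.92 on the log2 scale for Psmb8 (limma adjusted p = 0.824, and 0.162 with the experiment as a block). It was 0.56 for Psmd13, a lid subunit of the 19S regulator (adjusted p = 0.954, and 0.244 with the block). For Psmd6, another lid subunit, it was 0.26 (adjusted p = 0.968, and 0.537 with the block). None of these differences passed the test, and the Psmb8 signals in normal cells were all under the expressed threshold. The share of all tested probe sets with such a split is not given here, so the count is not a result about the members.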

How the results depend on the processing

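Among the members followed for this, those with the largest differences and the inducible subunits, no difference reversed under any alternative. Some smaller differences did change sign, as the counts by role under other scalings show. With the experiment as a block (the pairing of cultures), 2 members rose and 3 fell in tumor cells, against 0 and 0 without it, and 4 rose and 3 fell in the mean arginine response, against 1 and 0. The mean response called 0 risers with no filter on low signals, with scan day as a block or with chip lot as a block (Psmg4 adjusted p = 0.0604, 0.0756 and 0.0887). The unmoderated model lost Psmg4 (0.0993). Between the lines with arginine, 3 members in place of 7 were higher with no filter and 3 in the unmoderated model, and 3 in place of 5 were lower under median centring. There Psmb9 passed with low signals raised to the threshold, quantile normalization or median centring (adjusted p = 0.0354, 0.0447 and 0.0428). The causes were not tested.

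With single arrays left out, the members called higher with arginine numbered 3 to 9 and those lower 3 to 5. Without arginine they numbered 7 to 14 and 4 to 7. The mean response called 0 to 1 risers and 0 to 1 that fell, that one being Psme4 without the deficient tumor array of experiment 1 (adjusted p = 0.0412). The response of normal cells called 0 to 1 risers, Psmg4 without the deficient normal array of experiment 2 (adjusted p = 0.0445). The count higher with arginine was 3 without the sufficient normal array of experiment 1 or 3 or the sufficient tumor array of experiment 3, and 4 without the tumor array of experiment 2 in either medium. The count lower was 3 without the sufficient normal array of experiment 3 or the sufficient tumor array of experiment 2, and without arginine it was 4 without the deficient tumor array of experiment 2. The median response of the members spanned 0, at -0.02 to 0.18 in tumor cells and -0.04 to 0.05 in normal cells.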
